A study of Mus musculus with 9 samples.

Results

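Interferon response genes were followed as a set of 35 named mouse genes on 9 Applied Biosystems single-colour arrays of jejunal RNA. A gene was found where a probe carries its name as gene symbol in the deposited files, which was the case for 26 of the 35. A further 7 genes, Irf8, Irf9, Ifih1, Isg15, Rsad2, Eif2ak2 and Iigp1, carry an older symbol there and were found through the RefSeq accession of their probe. Ifit3 and Bst2 had no matched probe and were not analysed here. The 33 genes with a probe are described beside the 15674 genes that the array names. Each array was hybridized with RNA of 1 mouse, and all were OF1 outbred males, 7 weeks old, from generation 3 of a feeding trial in which families received feed B, feed K or feed G, with 3 mice per feed. All 9 mice ate freely until feed was taken away 3 hours before the jejunum was sampled, had no engineered allele named in the labels, and were not matched between feeds for the hour at which tissue was taken. The trial asked for the effect of a maize diet, but what the feed letters stand for is not given in the sources used here, so that no feed was taken as the control, and whether mice of a feed were litter mates is not stated.

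Interferons are cytokines that cells release on contact with viruses, bacteria or activated lymphocytes. Type I and type III interferons signal through a complex that contains STAT2 and IRF9 and binds the interferon-stimulated response element (ISRE) in the promoters of antiviral genes, whereas interferon gamma, the type II interferon of T cells and natural killer cells, acts on the gamma-activated site (GAS). The small intestine is known for a standing low level of both programmes, with type III interferon acting on the epithelium and interferon gamma supplied by lymphocytes of the mucosa. The listed genes fall into regulators of the pathway, sensors of viral nucleic acid, the oligoadenylate synthetase (OAS) family, other antiviral effectors, and the GTPases that interferon gamma induces.

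Array quality differed between the mice. Detection of a probe required that its signal was at least 3 times the noise, which was met by between 33.7% and 48.1% of the 33012 probes per mouse, with 38.0% ± 5.08 (SD, n = 3) on feed B, 43.6% ± 3.46 on feed K and 47.0% ± 0.926 on feed G. The lowest share belonged to mouse 8 on feed B. Enterocyte genes marked the tissue as labelled, since all 5 with a probe, among them Vil1 of the brush border and the fatty acid carrier Fabp2, were detected on all 9 arrays. In whole tissue, fewer cells of a type and less RNA per cell cannot be told apart.

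The interferon response genes were detected more often than the average gene of the array. All 9 arrays detected 22 of the 33 (66.7%), compared with 37.6% of the 15674 genes, and 32 (97.0%) were detected on at least 3 arrays, compared with 61.6%. Each of the 33 was detected on at least 1 array, whereas 3208 genes of the array were detected on none. Between 25 genes, in mouse 8 on feed B, and 32 genes were detected per mouse. Oas1a was detected on 2 arrays and Ifit2 on 3. Of the interferons themselves, 6 had a probe. Ifna2, Ifna4, Ifnb1 and Ifng were detected on none of the 9 arrays, whereas Ifna1 was detected on 2 and the type III interferon Il28b on 8. With a ratio of 5 in place of 3, 18 of the 33 were still found in every mouse.

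Promoter windows were read for the listed genes, because the ISRE and the GAS are the elements that define the type I and the gamma programme. RefSeq windows of the GRCm38.p6 assembly, from 250 bases before to 50 bases after the start of transcription, were at hand for 29 of the 35 genes, with Tgtp entered as Tgtp1. They were not at hand for Iigp1, Mx1, Mx2, Oas2, Usp18 and Zbp1. The ISRE core was searched as GAAANNGAA and the GAS as TTCNNNGAA, on both strands, and overlapping matches were kept. The GAS letters read the same on both strands, and the motifs can overlap each other. The ISRE core was present in 18 of the 29 genes (62.1%), compared with 9.76% of 27025 genes with a window, and the GAS in 11 of 29 (37.9%), compared with 9.55%. Both were present in 6 genes, namely Oas1a, Bst2, Eif2ak2, Adar, Igtp and Tgtp, and neither in 6 others, Irf7, Irf9, Nmi, Oasl1, Oasl2 and Ifi47. The runs below are the matches of genes whose signals are described in the following paragraphs. They are written along the gene, with the motif in capitals, and lie upstream of the start.
Isg15, ISRE core, chr4:156200871-156200900, minus strand: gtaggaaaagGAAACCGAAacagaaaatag
Ifit1, ISRE core, chr19:34640795-34640824, plus strand: cagtctcagtTTCAGTTTCtcactgctgac
Oas3, ISRE core, chr5:120777715-120777744, minus strand: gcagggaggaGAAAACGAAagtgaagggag
Socs1, ISRE core, chr16:10785594-10785623, minus strand: gccggaaagaGAAACCGAAagcgggggtgg
Gbp2, ISRE core, chr3:142620595-142620624, plus strand: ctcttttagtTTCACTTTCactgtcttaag
Irf1, GAS, chr11:53769914-53769943, plus strand: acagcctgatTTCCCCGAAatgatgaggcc
Igtp, GAS, chr11:58199501-58199530, plus strand: aactagccatTTCTAGGAActgaaactgaa
Tgtp, GAS, chr11:48992315-48992344, minus strand: aactagccatTTCCAGGAAtcgaaactgaa
In Igtp and Tgtp the GAS is followed by an ISRE core that closes the same run, and the runs of these neighbours in function begin with the same letters. In Ifit1 and Gbp2 the ISRE core lies on the opposite strand. Each match describes letters in a window and does not show that a factor binds there.

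No interferon response gene differed between the feeds at the adjusted threshold. Of the 33 genes, 32 were detected on at least 3 arrays and could be tested together with all other such genes. The moderated F test of limma over the 3 feeds called 0 of the 32 at an adjusted p below 0.05, and it called 0.0% of all 9652 genes tested. The smallest adjusted p of an interferon response gene was 0.652, for Socs1. At an unadjusted p below 0.05 there were 8 of 32 (25.0%), compared with a background of 5.37% of all genes, namely Socs1, Irf1, Oas2, Isg15, Igtp, Iigp1, Ifi47 and Tgtp. Such counts, here and for the pairs of feeds, are descriptions. The genes vary together over the mice and are not independent, and the list was chosen with earlier results of these data known. The unmoderated F test also called 0 of the 32, with 6 at an unadjusted p below 0.05, and the exact permutation F test called 0, with 5. Of all 9556 genes these tests called 1 and 0, with 503 and 486 at an unadjusted p below 0.05. The count of 8 was 14 without mouse 8 on feed B, and 5 without mouse 1 on feed K or without mouse 11 on feed G. Over all genes tested it was 656 of 9580, 378 of 9507 and 459 of 9373 in these runs.

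**Figure D1:**
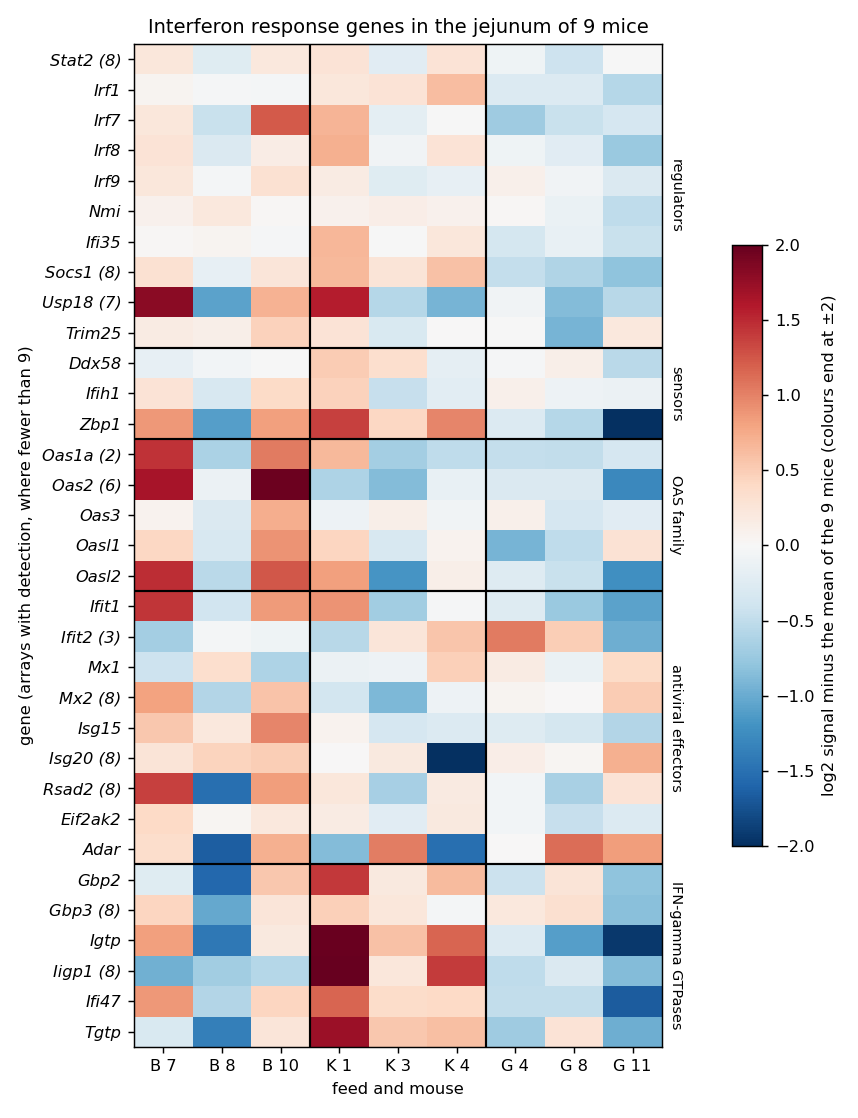
Log2 signal of the 33 interferon response genes in each mouse, minus the gene's mean over the 9 mice, with genes in rows by role and mice in columns by feed. Numbers after a gene give the arrays on which it was detected where these were fewer than 9. The 4 GTPases detected on every array are highest in mouse 1 on feed K, and mouse 11 on feed G holds the lowest value of 12 of the 22 genes that every array detected.

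The 3 pairs of feeds share mice, so their differences are given side by side and are not independent of each other. Between feed G and feed K, 26 of the 32 genes had a lower mean on feed G, with a median difference of -0.34 on the log2 scale, while the median of all genes was -0.01. Limma called 0 of the 32 for this pair, as it called 0.0% of all genes. At an unadjusted p below 0.05 there were 9 of 32, compared with 4.54% of all genes. All 9 were lower on feed G, compared with 2.39% of all genes that were lower and 2.14% that were higher. They were the regulators Irf1, Irf8, Ifi35 and Socs1, the sensor Zbp1, and the GTPases Igtp, Iigp1, Ifi47 and Tgtp. In 11 genes all 3 mice on feed G lay below all 3 on feed K, compared with 7.35% of all genes, and in 1, Mx2, all 3 lay above, compared with 6.35%. The count of 9 was 5 without mouse 1 on feed K and 5 without mouse 11 on feed G, compared with 282 of 9507 and 354 of 9373 genes. Under scaling of each array to its median, 22 of 32 were lower on feed G, with a shift of all genes of 0.11.

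Between feed G and feed B, 25 of the 32 genes had a lower mean on feed G, with a median difference of -0.35 against 0.06 for all genes. This direction turned with the scaling: with arrays scaled to their medians, the median of all genes was 0.53 higher on feed G and only 11 of the 32 were lower, although 30 of the 32 lay below the median of all genes, compared with 27 under quantile normalization. Limma called 0 of the 32, and 0.0% of all genes. At an unadjusted p below 0.05 there were 6 genes, compared with 5.74% of all genes. Socs1, Oas2, Ifit1, Isg15, Eif2ak2 and Ifi47 were these 6, all lower on feed G, compared with 1.9% of all genes that were lower and 3.84% that were higher. In 7 genes, Irf1, Nmi, Ifi35, Socs1, Oas2, Isg15 and Eif2ak2, all mice on feed G lay below all on feed B, compared with 4.66% of all genes, and in 0 all lay above, compared with 6.35%. Isg15 is counted by the mean of 2 probes, of which one was detected on no array. By its detected probe these feeds overlapped, with 10.57 in mouse 8 on feed B and 10.70 in mouse 8 on feed G. The count of 6 was 13 without mouse 8 on feed B, where it was 611 of all 9580 genes tested. It was 3 without mouse 7 on feed B (501 of 9565 genes), without mouse 10 on feed B (1039 of 9443) or without mouse 4 on feed K (585 of 9511). With arrays scaled to their medians 2 of the 32 were below an unadjusted p of 0.05, compared with 1797 of all 9652 genes.

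Differences between feed K and feed B had no common direction. Of the 32 genes, 15 had the higher mean on feed K and 17 on feed B, with a median difference of -0.08 against 0.05 for all genes, and with arrays scaled to their medians, where the median of all genes was 0.41 higher on feed K, 25 were higher on feed K. Limma called 0 of 32 and 0.0% of all genes, with 4 genes at an unadjusted p below 0.05, compared with 6.31% of all genes. Iigp1 and Tgtp were the 2 of them with the higher mean on feed K, compared with 4.34% of all genes, and Oas2 and Isg15 the 2 with the lower, compared with 1.97%. Isg15 stands here by the mean of 2 probes, of which one was detected on no array, and by its detected probe the feeds overlapped and the unadjusted p was 0.226. Oas2 was detected in only 1 mouse on feed K and in 2 on feed B. In 3 genes, Irf1, Iigp1 and Tgtp, all mice on feed K lay above all on feed B, compared with 6.28% of all genes, and in 3, Oas2, Isg15 and Isg20, all lay below, compared with 3.71%. The count of 4 was 8 with arrays scaled to their medians, where the count over all 9652 genes rose from 609 to 1230. The roles are therefore described one by one.

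**Figure D2:**
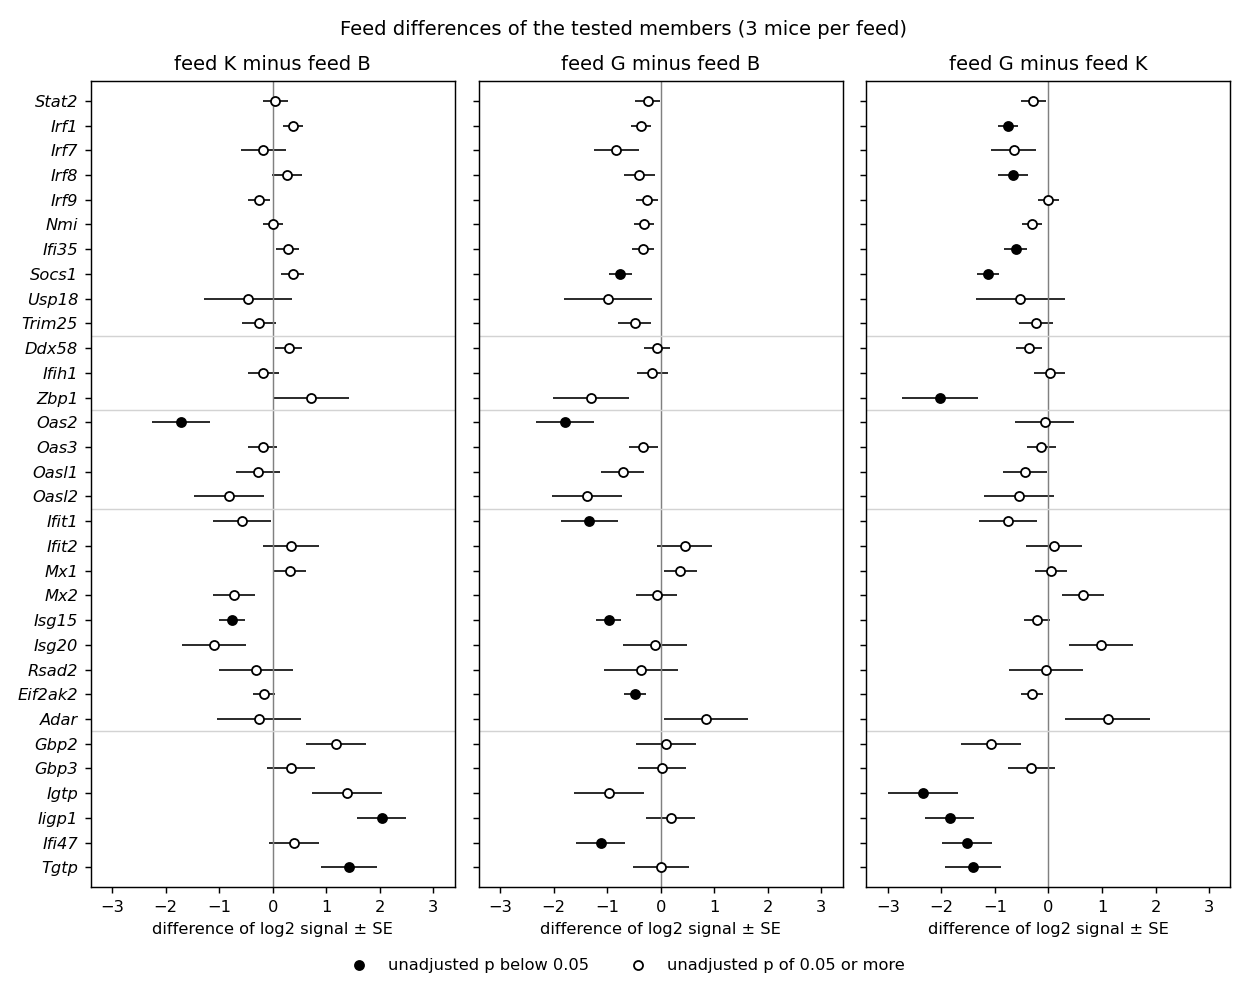
Difference of mean log2 signal between each pair of feeds for the 32 tested genes, as points with the standard error of the limma fit and 3 mice per feed, in order of role from regulators at the top to GTPases at the bottom. Filled points have an unadjusted p below 0.05, and none passed after adjustment. All 6 GTPases lie left of 0 for feed G minus feed K and right of 0 for feed K minus feed B.

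In the following, values are log2 signals after quantile normalization, given for mice 7, 8 and 10 on feed B, mice 1, 3 and 4 on feed K, and mice 4, 8 and 11 on feed G, in this order. They compare mice for 1 gene, since signals of different probes have no common scale.

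All 10 regulators had their lowest mean on feed G, although for Irf9 this mean was 10.93, as on feed K. With arrays scaled to their medians 9 of the 10 were still lower on feed G than on feed K, but 3 of the 10 lower than on feed B. Irf1, a transcription factor that interferon gamma induces, was measured at 13.16, 13.09 and 13.07 on feed B, 13.33, 13.39 and 13.73 on feed K, and 12.84, 12.84 and 12.53 on feed G. The 3 feeds did not overlap, with every mouse on feed K above every mouse on feed B and every mouse on feed G below. The difference of feed G minus feed K was -0.75 (SE 0.19), with an unadjusted p of 0.00355 and an adjusted p of 0.960 by limma. Socs1, the inhibitor of JAK kinases that interferon gamma induces as a brake, had the smallest unadjusted p of the F test among the genes, 0.00183, at rank 27 of the 9652 genes. It was measured at 9.47, 8.99 and 9.40 on feed B, 9.81, 9.42 and 9.74 on feed K, and 8.69, 8.55 and 8.36 on feed G, and was detected on all arrays but that of mouse 8 on feed B. All mice on feed G lay below all others, and the difference was -1.13 (SE 0.21) to feed K and -0.75 (SE 0.21) to feed B, with adjusted p-values of 0.846 and 0.649 by limma. Its promoter run above holds an ISRE core that overlaps another match of the same motif.

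Irf7, the amplifier of the type I response, showed another order. It was measured at 11.10, 10.43 and 12.10 on feed B, 11.55, 10.68 and 10.86 on feed K, and 10.17, 10.43 and 10.54 on feed G, so that the highest values were those of mouse 10 on feed B and mouse 1 on feed K, and the mice on feed G lay below all mice on feed K. The unadjusted p of the F test was 0.174. Usp18, the protease that removes ISG15 and dampens type I signalling, had its 3 highest values, 10.10, 9.85 and 8.98, in mouse 7 on feed B, mouse 1 on feed K and mouse 10 on feed B, with all other mice between 7.22 and 8.21. It was not detected in mouse 8 on feed B and mouse 4 on feed K. Nmi and Irf9 had the smallest SDs over the mice. Nmi, an interferon-induced adaptor protein, was measured at 13.48, 13.61 and 13.42 on feed B, 13.48, 13.54 and 13.49 on feed K, and 13.42, 13.27 and 12.90 on feed G. Irf9, the DNA-binding subunit of the type I complex, was measured at 11.24, 10.98 and 11.32 on feed B, 11.17, 10.77 and 10.84 on feed K, and 11.11, 10.95 and 10.72 on feed G. Within this narrow span the value of Nmi in mouse 11 on feed G lay apart from the others. Irf8, a factor of myeloid and lymphoid cells, and Ifi35, a partner of Nmi, had unadjusted p-values of 0.0476 and 0.0198 for feed G minus feed K, with differences of -0.66 (SE 0.28) and -0.61 (SE 0.21). For Stat2 and the ubiquitin ligase Trim25 the unadjusted p of the F test was 0.463 and 0.351.

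**Figure D3:**
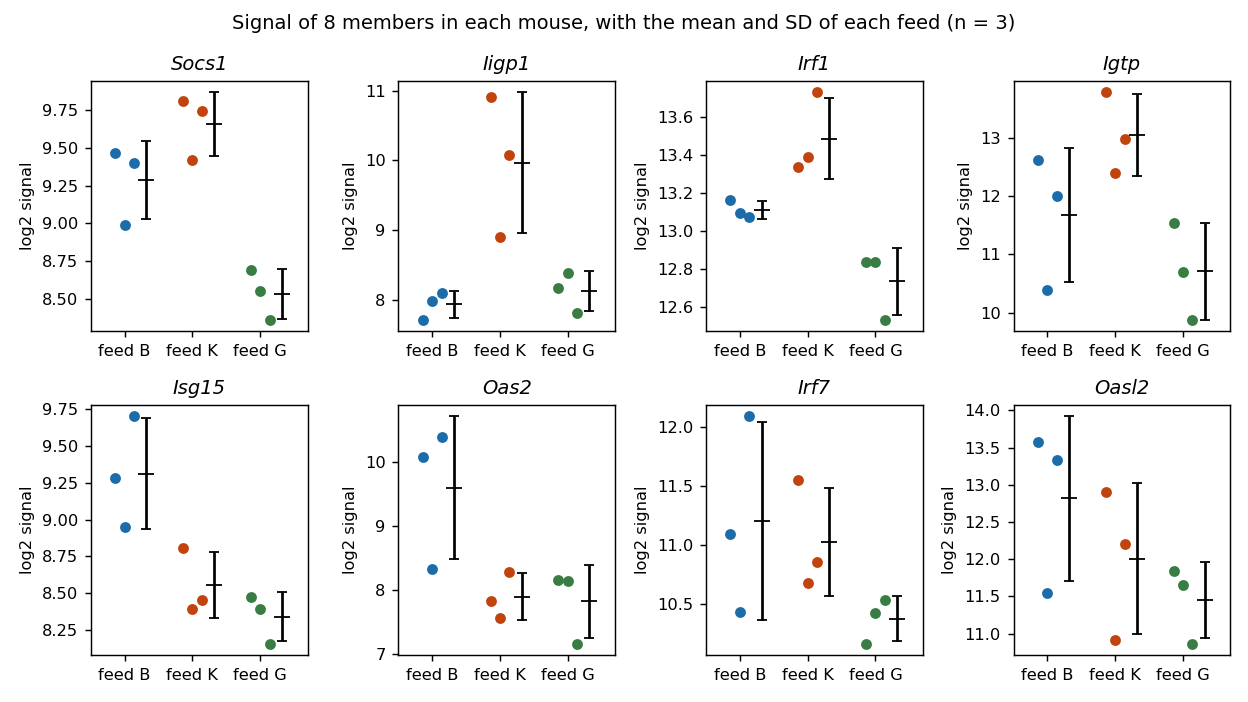
Log2 signal of 8 interferon response genes in each mouse, as points by feed, with the mean and SD of the 3 mice as a bar beside them. Isg15 is drawn as the mean of its 2 probes. Each panel has its own log2 axis. For Socs1, Irf1 and Igtp the mice on feed G lie below those on feed K, for Iigp1 the mice on feed K stand above the others, and for Isg15 and Oas2 the mice on feed B do.

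Of the 3 sensors, only Zbp1 had an unadjusted p below 0.05 for a pair of feeds. Zbp1, which senses nucleic acid in the Z form and can start necroptosis, was measured at 12.41, 10.45 and 12.37 on feed B, 12.91, 11.96 and 12.52 on feed K, and 11.28, 10.98 and 9.05 on feed G. This was a range of 14.5-fold over the 9 mice, with mouse 1 on feed K at the top, mouse 11 on feed G at the bottom, and mouse 8 below the others on feed B. The feed G mice lay below the feed K mice with a difference of -2.03 (SE 0.71), an unadjusted p of 0.0202 and an adjusted p of 0.960 by limma. The RNA helicases Ddx58 and Ifih1, which detect viral RNA in the cytosol, ranged 2.05-fold and 1.89-fold over the mice. The 2 probes of Ddx58 did not follow each other, with an r of -0.16 over the 9 mice.

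The OAS family makes the second messenger that activates RNase L, and its 4 tested genes all had their highest mean on feed B, which held for 2 of the 4 against feed K and 3 of the 4 against feed G with arrays scaled to their medians. Oas2, detected on 6 arrays, was measured at 10.09, 8.32 and 10.40 on feed B, 7.83, 7.56 and 8.28 on feed K, and 8.16, 8.15 and 7.16 on feed G, and all mice on feed B lay above all others. Mice 7 and 10 on feed B stood far above the rest, whereas mouse 8, in which the gene was not detected, lay next to mouse 4 on feed K. Oas2 was also not detected in mice 3 and 4 on feed K, so that its difference between feeds K and B rests in part on values near background. The differences to feed B were -1.71 (SE 0.55) for feed K and -1.79 (SE 0.55) for feed G, with unadjusted p-values of 0.0136 and 0.0111 and adjusted p-values of 0.773 and 0.729 by limma. Oasl2, which carries ubiquitin-like domains, was measured at 13.57, 11.55 and 13.33 on feed B, 12.91, 10.91 and 12.21 on feed K, and 11.84, 11.65 and 10.87 on feed G. Its range was 6.52-fold, and the feeds overlapped, because mouse 8 on feed B and mouse 3 on feed K were as low as the mice on feed G. Oas1a, whose probes are named for Oas1a and Oas1g together, reached 8.30, 7.90 and 7.50 in the same 3 mice, 7 and 10 on feed B and 1 on feed K, against 6.17 to 6.51 in the others. It was detected in only 2 mice, mouse 10 on feed B and mouse 1 on feed K, and was not tested. Its mean was 7.47 on feed B and 6.41 on feed G, a ratio of 2.08. Only 1 of the 3 mice on feed B was above background, and none on feed G was. The highest value, in mouse 7 on feed B, was itself not above background, so the ratio is not a lower limit. Oasl1, which restrains the translation of Irf7, ranged 3.54-fold with an unadjusted p of 0.272 in the F test, and Oas3 2.08-fold with 0.517. The 2 probes of Oas3 did not follow each other, with an r of -0.33, and by the brighter probe the range was 3.27-fold and the p 0.166.

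Antiviral effectors repeated the order of the mice seen for Oasl2 in part. Ifit1, which binds viral RNA that lacks host cap marks, was measured at 11.64, 9.82 and 11.06 on feed B, 11.10, 9.51 and 10.17 on feed K, and 9.94, 9.46 and 9.13 on feed G. Mouse 7 on feed B was highest, followed by mouse 1 on feed K and mouse 10 on feed B, and the difference of feed G minus feed B was -1.33 (SE 0.54), with an unadjusted p of 0.0381 and an adjusted p of 0.850 by limma. Isg15, a ubiquitin-like protein that is attached to viral and host proteins, has 2 probes, of which one was detected on no array and the other on all 9. The mean of both probes was 9.28, 8.95 and 9.70 on feed B, 8.81, 8.39 and 8.46 on feed K, and 8.48, 8.39 and 8.16 on feed G, with an unadjusted p of 0.00820 in the F test. The detected probe alone read 12.58, 10.57 and 12.68 on feed B, 11.68, 10.68 and 11.24 on feed K, and 10.27, 10.70 and 9.85 on feed G. Its 3 highest values again belonged to mice 10 and 7 on feed B and mouse 1 on feed K, mouse 8 on feed B lay among the mice on the other feeds, and its unadjusted p was 0.0516. By the detected probe, feed G minus feed B was -1.67 (SE 0.57), compared with -0.97 (SE 0.24) by the mean of both, and feed K minus feed B was -0.74 (SE 0.57), with an unadjusted p of 0.226.

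Rsad2, an enzyme that makes a chain-terminating nucleotide, had its highest value, 11.25, in mouse 7 on feed B. Its lowest, 8.37, was in mouse 8 on the same feed, where it was not detected. Mice of 1 feed therefore differed more than the feed means, which were 10.11 ± 1.53 (SD, n = 3) on feed B, 9.79 ± 0.50 on feed K and 9.74 ± 0.47 on feed G. Eif2ak2, the kinase PKR that stops translation, was among the 3 narrowest of the 22 genes detected on every array and was measured at 12.18, 11.82 and 11.99 on feed B, 11.95, 11.56 and 11.97 on feed K, and 11.72, 11.33 and 11.51 on feed G. All mice on feed G were below all mice on feed B, with a difference of -0.48 (SE 0.21) and an unadjusted p of 0.0481 by limma. This sign was lost when arrays were scaled to their medians, where the difference was 0.08. Mx1 and Mx2 are GTPases that block incoming viral particles. Mice 7 and 10 on feed B held the lowest values of Mx1 by the mean of its 2 probes, 8.59 and 8.39, where all others lay between 8.87 and 9.48. One of these probes was detected on 2 arrays, and by the brighter probe the lowest value was 9.56, in mouse 1 on feed K. Mx2 was highest in mice 7 and 10 on feed B, at 9.83 and 9.58, and lower in mouse 8, at 8.44, as seen for Ifit1. In mouse 8 on feed B Mx2 was not detected. All its mice on feed G lay above those on feed K, with a difference of 0.65 (SE 0.39) and an unadjusted p of 0.134.

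Adar, the enzyme that edits adenosine to inosine in double-stranded RNA, ranged 6.80-fold, with 12.00, 12.14 and 12.78 in mouse 8 on feed B and mice 4 and 1 on feed K and values of 13.66 to 14.76 in the other mice. Mice 1 and 4 on feed K were thus among the lowest for Adar, although for Oasl2 they were the highest on their feed. Isg20, an RNA exonuclease, was not detected in mouse 4 on feed K, at 6.11, and lay between 8.40 and 9.10 in the other mice. Ifit2 was detected in 1 mouse on feed B, none on feed K and 2 on feed G, and its unadjusted p was 0.679.

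The 6 GTPases of the gamma programme act in the defence against intracellular pathogens. All 6 had their highest mean on feed K, also with arrays scaled to their medians and in the values of the series table. Compared with feed B their median difference was 1.28, and compared with feed K it was -1.47 on feed G, while the medians of all genes were 0.05 and -0.01. Igtp had the widest range of all 22 genes detected on every array, 15.0-fold, and was measured at 12.63, 10.39 and 12.00 on feed B, 13.79, 12.40 and 12.98 on feed K, and 11.54, 10.71 and 9.88 on feed G. All mice on feed K lay above all mice on feed G, with a difference of -2.35 (SE 0.65), an unadjusted p of 0.00677 and an adjusted p of 0.960 by limma. Iigp1, detected on 8 arrays, was measured at 7.71, 7.98 and 8.10 on feed B, 10.92, 8.90 and 10.08 on feed K, and 8.17, 8.38 and 7.81 on feed G. Every mouse on feed K was above every other mouse, with a difference of feed K minus feed B of 2.04 (SE 0.45), an unadjusted p of 0.00192 and an adjusted p of 0.693.

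Ifi47 and Tgtp also had their highest mean on feed K. Ifi47 was measured at 11.44, 10.00 and 11.01 on feed B, 11.73, 10.95 and 10.98 on feed K, and 10.09, 10.08 and 8.92 on feed G, and its difference of feed G minus feed K was -1.52 (SE 0.46), with an unadjusted p of 0.0108. Tgtp, whose locus holds near-identical copies that 1 probe may not separate, was measured at 8.68, 7.61 and 9.22 on feed B, 10.69, 9.52 and 9.58 on feed K, and 8.27, 9.26 and 8.01 on feed G. Its mice on feed K lay above all others, with a difference of feed K minus feed B of 1.43 (SE 0.52) and an unadjusted p of 0.0248. Gbp2, a guanylate-binding protein that opens pathogen vacuoles, was measured at 9.16, 7.84 and 9.95 on feed B, 10.83, 9.61 and 10.05 on feed K, and 8.98, 9.67 and 8.61 on feed G, and here mouse 8 on feed G and mouse 10 on feed B reached into the range of feed K. The related Gbp3 had an unadjusted p of 0.707 in the F test. Mouse 1 on feed K was the highest of the 9 mice for all 4 GTPases detected on every array, and the lowest was mouse 11 on feed G for Igtp and Ifi47 and mouse 8 on feed B for Gbp2 and Tgtp. The IFN-gamma transcript itself, as stated above, was not detected in any mouse.

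Other genes of the pathway were read from a list of ligands, receptors and their signalling, sensors and further targets, of which 56 genes had a probe and 45 could be tested. The F test of limma called 0 of the 45, with 5 (11.1%) at an unadjusted p below 0.05, compared with 0.0% and 5.37% of all genes, and the unmoderated and the exact permutation F test also called 0. The 4 with the smallest p were Tap1, Psmb9, Jak1 and Cxcl10. Tap1, the peptide transporter of the class I antigen pathway, was measured at 10.62, 10.46 and 10.49 on feed B, 11.62, 11.09 and 11.28 on feed K, and 10.55, 10.03 and 8.72 on feed G, with the feed K mice above all others and an unadjusted p of 0.0180 in the F test. Psmb9, a subunit of the immunoproteasome that interferon gamma induces, was measured at 13.63, 12.99 and 12.74 on feed B, 14.62, 13.94 and 14.29 on feed K, and 13.47, 12.82 and 11.33 on feed G, with an unadjusted p of 0.0261. In both genes mouse 1 on feed K was highest and mouse 11 on feed G lowest, as in Igtp and Ifi47. Cxcl10, the chemokine that attracts T cells, was detected on 5 arrays and had its 2 highest values, 9.53 and 8.74, in mice 3 and 4 on feed K, with an unadjusted p of 0.0408. Jak1, the kinase shared by all interferon receptors, went another way, lowest in mice 7 and 8 on feed B, with 7.02, 7.93 and 9.33 on feed B, 9.56, 9.89 and 9.69 on feed K, and 9.03, 9.30 and 9.68 on feed G and an unadjusted p of 0.0305. It was detected on 7 arrays, with only 1 of them on feed B, so that this difference rests in part on values near background.

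Of the 27 further targets tested, 23 had the lower mean on feed G than on feed K and 6 of these an unadjusted p below 0.05, compared with the 2.39% of all genes. Of the 13 genes of receptors and signalling, 7 were lower and 6 higher on feed G, and 0 had an unadjusted p below 0.05. The receptor chains Ifnar1, Ifnar2, Ifngr1 and Ifngr2 were detected on all 9 arrays, and the type III receptor chain Il28ra on none. For the former 4 the unadjusted p-values of the F test lay between 0.374 and 0.760.

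Interferon response genes varied more between mice than the average gene. For the 22 genes detected on all 9 arrays the median SD over the mice was 0.46 on the log2 scale, compared with 0.29 for all 5887 such genes, and within feeds it was 0.39 compared with 0.28. The signal ranged more than 2-fold over the 9 mice in 18 of the 22 (81.8%, compared with 42.1%) and more than 4-fold in 8 (36.4%, compared with 7.56%). By role, the median SD was 0.91 for the 4 GTPases, 0.57 for 3 OAS genes, 0.50 for 5 effectors, 0.35 for 7 regulators and 0.32 for 3 sensors. The widest were Igtp and Zbp1, with SDs of 1.29 and 1.24 and ranks 42 and 48 among the 5887 genes, followed by Adar, Oasl2 and Tgtp. The narrowest were Nmi and Irf9, at 0.21 each, and Eif2ak2, at 0.27. Leaving out each mouse in turn gave a median SD between 0.42 and 0.48. The excess over all genes was smaller under other scalings, with 0.50 compared with 0.44 when arrays were scaled to their medians and 0.50 compared with 0.39 in the series table.

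**Figure D4:**
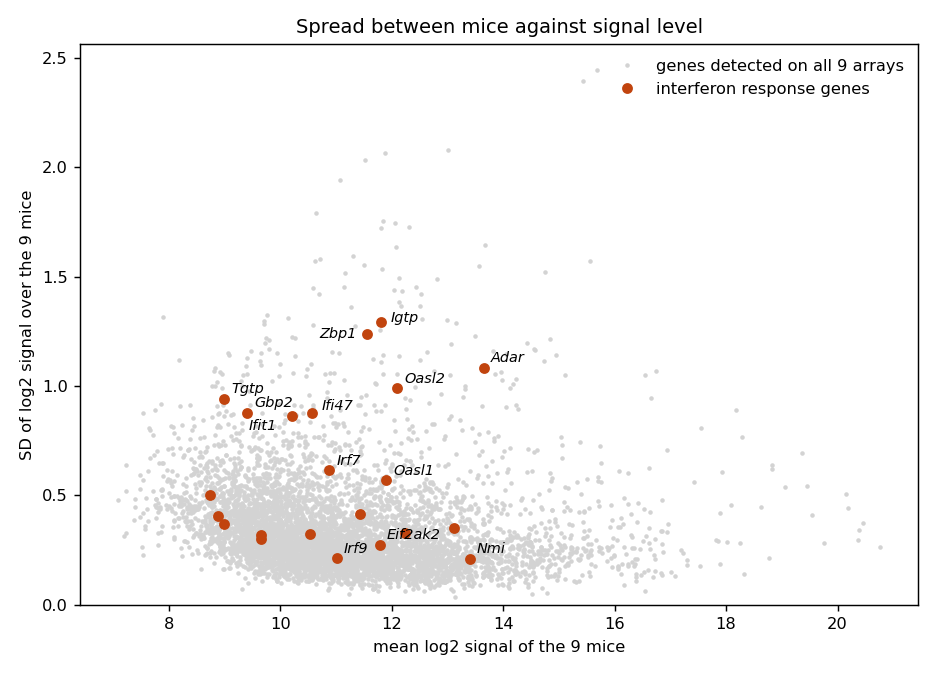
SD of log2 signal over the 9 mice against the mean log2 signal, for the 22 interferon response genes detected on all 9 arrays in dark orange and all 5887 such genes in grey. The orange points reach from 0.21 for Nmi to 1.29 for Igtp, and 8 of them ranged more than 4-fold over the mice.

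The spread was not shared out evenly over the mice. Of the 22 genes, 9 had their highest value in mouse 1 on feed K, compared with 11.3% of all genes, and 6 in mouse 10 on feed B, compared with 10.0%. The lowest value lay in mouse 11 on feed G for 12 of the 22, compared with 17.3% of all genes. Mouse 8 on feed B stood apart from its feed: 4 of the 22 genes lay above their median there, compared with 16 each in mice 7 and 10. On feed K 19 of the 22 lay above their median in mouse 1, 7 in mouse 3 and 14 in mouse 4, and on feed G 4 did in each mouse. Of all genes, 39.8%, 52.5% and 40.6% lay above their median in mice 7, 8 and 10 on feed B. The shares were 55.5%, 35.5% and 52.5% in mice 1, 3 and 4 on feed K. In mice 4, 8 and 11 on feed G they were 42.5%, 39.1% and 41.9%. The median deviation from the gene means was -0.26, -0.30 and -0.52 in mice 4, 8 and 11 on feed G, so that mouse 11 was the lowest of these as well.

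The genes varied together over the mice. Over the 231 pairs of the 22 genes the median Pearson's r was 0.46, compared with 0.02 over all pairs of the 5887 genes, and r was above 0 in 187 pairs (81.0%, compared with 52.0%) and above 0.8 in 22 (9.52%, compared with 1.43%). These are descriptions over 9 mice on shared arrays, and the pairs are not independent. With feed means subtracted the median r was 0.40. Of the 44 pairs with an r below 0, 35 involved Mx1 or Adar, and without these genes 181 of 190 pairs were above 0.

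High r values were found within and between roles. Zbp1 and Ifi47 had an r of 0.970, Irf8 and Igtp 0.946, and Igtp and Ifi47 0.934. Gbp2 and Tgtp had 0.969. Oasl2 and Ifit1 had an r of 0.968, Irf9 and Oasl2 0.892, Irf9 and Ifit1 0.858, and Irf7 and Oasl1 0.878. Ifit1 also had an r of 0.805 with the GTPase Ifi47, which was 0.877 with feed means subtracted. The detected probe of Isg15 had 0.931 with Oasl2 and 0.921 with Ifit1. Within the 4 GTPases the median r was 0.80, within the 8 OAS genes and effectors it was 0.47, and between these groups 0.33. With feed means subtracted these medians were 0.79, 0.33 and 0.48, so that the value between the groups was then above that within the OAS genes and effectors. Mx1 had a median r of -0.460 with the other 21 genes by the mean of its probes and of -0.501 by the brighter probe.

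**Figure D5:**
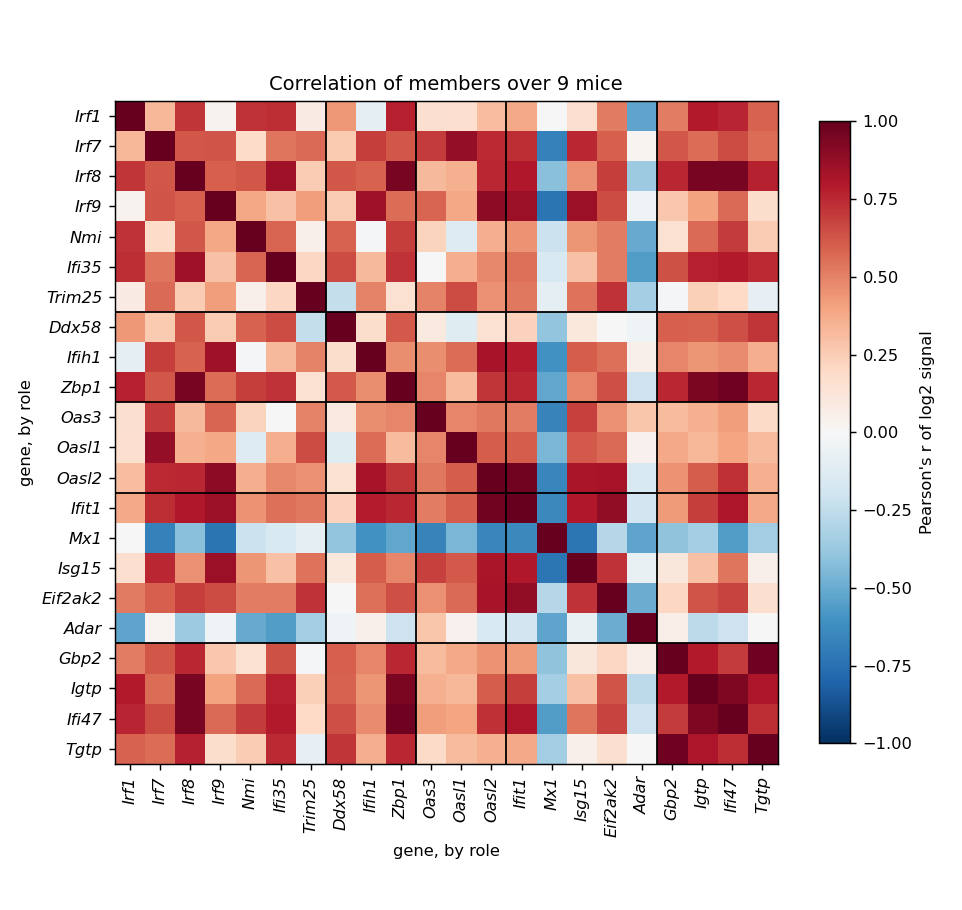
Pearson's r of log2 signal over the 9 mice for all pairs of the 22 interferon response genes detected on all 9 arrays, ordered by role with lines between roles. Red is above 0 and blue below 0. The block of GTPases at the lower right and the pair of Oasl2 and Ifit1 are red, and the line of Mx1 is blue with 20 of its 21 partners.

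As tests of co-variation, 41 relations of Irf7, for the type I side, and Irf1, for the gamma side, with the other genes were computed. After Benjamini-Hochberg adjustment over the 41, 1 passed, that of Irf7 with Oasl1 (r = 0.878, exact permutation p = 0.00107, adjusted p = 0.0437). Its Spearman's rho was 0.95 (exact permutation p = 3.53e-04, adjusted p = 0.0145), and without mouse 10 on feed B and mouse 1 on feed K, the 2 mice farthest from the median of Irf7, r was 0.825. With arrays scaled to their medians or with feed means subtracted the number that passed was 0. Without adjustment 13 of the 41 had a p below 0.05, 7 with Irf7 and 6 with Irf1. Those with Irf7 were Oasl1, Ifih1, Oas3, Oasl2, Ifit1, Isg15 and, with an r of -0.675, Mx1, and those with Irf1 were Irf8, Nmi, Ifi35, Zbp1, Igtp and Ifi47. Oas3, Isg15 and Mx1 stand here by the mean of 2 probes, with an r of 0.699, 0.753 and -0.675 with Irf7. By the brighter probe these were 0.632, 0.847 and -0.586. By Spearman's rho the genes with a p below 0.05 were others in part, namely Oasl1, Ifi47, Irf8, Trim25, Eif2ak2 and Zbp1 with Irf7, and Ifi35, Nmi, Igtp and Zbp1 with Irf1, so that Zbp1 stood with both. Irf7 with Irf1 had an r of 0.329 (exact permutation p = 0.384) and a rho of 0.50 (exact permutation p = 0.178). Igtp and Irf1 had an r of 0.790 (exact permutation p = 0.0110, adjusted p = 0.122), which was 0.279 with feed means subtracted. The r of Irf1 with Ifi35 was 0.742 and became -0.0190 with feed means subtracted.

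Markers of immune and other cells moved between mice as well. The normalized signal, summed on the linear scale, of 9 markers of T cells and intraepithelial lymphocytes, among them Gzma and Gzmb, was 1217 to 6086 on feed B, 2204 to 25947 on feed K and 2244 to 9650 on feed G, and 0 of them were detected on all 9 arrays. The highest sum belonged to mouse 3 on feed K, followed by mouse 8 on feed G with 9650 and mouse 1 on feed K with 7886, and the lowest to mouse 8 on feed B, so that the order differed from that of the GTPases. In mice 1 and 3 on feed K the sum came mainly from Gzma and Gzmb. Cd2 was highest in mouse 7 on feed B and lowest in mouse 1 on feed K, and the other markers were highest in mouse 3 on feed K. The 6 B cell markers summed to 3052 to 5286 on feed B, 848 to 4933 on feed K and 2245 to 5139 on feed G, with mice 1 and 3 on feed K at 886 and 848 below all others. The 8 macrophage and dendritic markers summed to 4113 to 4549 on feed B, 3113 to 4476 on feed K and 4185 to 4719 on feed G. Of these, Csf1r, Emr1 and Cd14 were detected on all 9 arrays, Aif1 on 8 and Cd68 on 4. Itgax, Siglech and Fcgr1, markers of dendritic cells, plasmacytoid dendritic cells and macrophages, were detected on no array. The 5 plasma cell markers summed to 7710 to 17833 on feed B, 5642 to 15686 on feed K and 8954 to 27279 on feed G. The part of these cells in the feed and mouse differences was not tested.

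Among other cell types, the 5 enterocyte markers summed to 1648020 to 2482420 on feed B, 2208110 to 2544020 on feed K and 2120520 to 2524650 on feed G, the 4 goblet and Paneth cell markers to 356500 to 450147 on feed B, 317402 to 376198 on feed K and 277775 to 468163 on feed G and the 6 smooth muscle markers to 88287 to 102571 on feed B, 81157 to 110332 on feed K and 64904 to 104592 on feed G. Mouse 11 on feed G, where the interferon response genes were lowest, had the lowest sum of the goblet and Paneth markers and of the smooth muscle markers. The former was low through the Paneth cell lysozyme Lyz1, at a log2 signal of 14.38 compared with at least 16.26 in the other mice. Of the goblet cell genes, Tff3 and Clca3 were second highest in this mouse. Spink4 was not, at 16.10 within a range of 15.65 to 16.52 over the 9 mice. The 3 adipocyte markers summed to 3635 to 22596 on feed B, 8236 to 11821 on feed K and 6072 to 8575 on feed G and the 3 erythroid markers to 3524 to 12359 on feed B, 2087 to 3943 on feed K and 1608 to 6948 on feed G, both highest in mouse 10 on feed B. The 4 pancreas markers summed to 701 to 831 on feed B, 722 to 868 on feed K and 827 to 1269 on feed G. The F test of limma called 0 of the markers of each list. In the enterocyte list 1 of the 5 had an unadjusted p below 0.05, compared with 5.37% of all genes. This was Slc5a1, with a mean of 15.39 on feed B, 16.53 on feed K and 16.34 on feed G. All mice on feed B lay below all others, and the unadjusted p of the F test was 0.00894. The enterocyte sum, led by Fabp2 as the brightest gene, does not show this difference. The part of these tissues in the results was not tested.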

How the data were processed

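Jejunal RNA of 9 mice was measured on 9 Applied Biosystems arrays by chemiluminescence. The deposited intensity of each probe is the signal that the authors exported from the scanner software, and the deposited signal-to-noise score and flag of each probe come from the same software. The 297108 values of the series table equal those of the array files. Members and gene lists were chosen with earlier results of these data known. Quantile normalization with the arithmetic mean, log2 and the mean of log2 over a gene's probes were carried out in R 4.3.3 and Python 3.11.15 (numpy 2.4.6, pandas 2.3.3, matplotlib 3.10.9), after leaving out spots with a flag above 5000. A gene was detected where a probe had a signal at least 3 times the noise, and tested where this held on at least 3 arrays (9652 genes). Feeds were compared with limma 3.58.1 (lmFit, eBayes, feed as the only factor), with Benjamini-Hochberg adjustment over all genes tested and a threshold of 0.05. Pair differences came from the same fit. Correlations were tested over all 362880 orderings of the mice, two-sided. The exact permutation F test used 280 arrangements of the mice, so that its smallest p is 0.00357. Quantile normalization, the limma fit and the unmoderated and exact permutation F tests were tested on simulated data.

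Alternatives were scaling to the array median, the series table without further normalization, the brightest probe of a gene, spots with a high flag kept, a floor at percentile 5, no filter on dim genes, genes detected on all 9 arrays, an unmoderated F test per gene, the exact permutation F test, a signal-to-noise ratio of 5, and each mouse left out. Counts over members named by symbol alone were added after seeing the data. Values on every array are given for genes detected on all 9 arrays among the 6 smallest F test p-values, the 5 widest and the 3 narrowest ranges, for Irf7 and Irf1, and for the 4 other pathway genes with the smallest p. Those of Socs1, Iigp1, Oas2, Oasl2 and Ifit1 were chosen after their values were seen. Each array is 1 mouse, the p-values measure the spread between these mice, and the number of arrays limits the precision.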

Additional observations from a re-analysis of the deposited data

Results flagged for a closer look

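For each of the 33 genes with a probe, the highest or the lowest of the 9 mice was set against its nearest neighbour, as the gap divided by the whole range. In 3 of the 33 genes this ratio was above the critical value of 0.493 for 9 values, where chance flags about 1 in 20, or 1.65 of 33. Nmi was low in mouse 11 on feed G, at a log2 signal of 12.90 with a ratio of 0.531. Oas3 was high in mouse 10 on feed B, at 10.38 with a ratio of 0.578, by the mean of 2 probes with an r of -0.33 between them. The brighter probe of Oas3 was highest in mouse 7 on feed B, at 11.28, with 10.99 in mouse 10, and the other probe was lowest in mouse 7, at 8.17. Isg20 was low in mouse 4 on feed K, at 6.11 with a ratio of 0.765, and was not detected there. The values within a feed were not tested in this way, since each feed has 3 mice.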

How the results depend on the processing

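No interferon response gene and no other gene of the pathway lists passed the adjusted threshold under any alternative run. Numbers at an unadjusted p below 0.05 did move, and so did those over all genes. For runs without a named mouse the latter are given above. For the 3 feeds the number was 8, it was 5 by the exact permutation F test, and it lay between 5 and 14 with single mice left out, with 14 without mouse 8 on feed B and 5 without mouse 1 on feed K or mouse 11 on feed G. For feed K minus feed B it was 4, with 8 under scaling to the median, 7 with the series table, 2 for members named by symbol alone, an alternative chosen after seeing the data, and 3 to 6 with mice left out. Of all 9652 genes it was 609, with 1230 under scaling to the median and 609 with the series table. For feed G minus feed B it was 6, with 2 under scaling to the median, 2 with the series table, and 3 to 13 with mice left out. Of all 9652 genes it was 554, with 1797 under scaling to the median and 618 with the series table. The 13 were found without mouse 8 on feed B and the 3 without mouse 7 or 10 on feed B or mouse 4 on feed K. For feed G minus feed K it was 9, and 5 to 11 with mice left out, with 5 without mouse 1 on feed K or mouse 11 on feed G. The causes were not tested. The 1 relation with Irf7 that passed became 0 under scaling to the median and 0 with feed means subtracted. Eif2ak2, feed G minus feed B, was -0.48, and 0.0824 under scaling to the median. With mice left out the median SD lay between 0.42 and 0.48 and the median r between 0.39 and 0.54. No paired analysis was possible because the feeds share fewer than 2 mouse numbers, and a batch as a block was not run because no batch of the file headers holds several arrays apart from the rest. Signals near background, as for Oas1a and Ifit2, limit what can be said of these genes.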
